A study of Mus musculus with 8 samples.

Results

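Tropomyosins and tropomodulins are the proteins that run along the actin filament and close its slow-growing end. The 10 genes described here are 5 tropomyosin genes (Tpm1, Tpm2, Tpm3, Tpm4 and the Tpm3 copy Tpm3-rs7), 3 tropomodulin genes (Tmod1, Tmod2, Tmod3) and 2 leiomodin genes (Lmod2, Lmod3). They were chosen by symbol, as the rows of the count table whose Ensembl identifiers carry those names. All 10 were found among 51826 rows, and all 10 were among the 16623 genes that passed the filter on low counts. The libraries came from cardiomyocytes of mouse hearts on the C57BL/6 strain label, from LncSync-/- mice (KO), which lack the long noncoding RNA LncSync, and from wild-type mice (WT). The 4 groups were KO adult, WT adult, KO e13.5 and WT e13.5, where e13.5 is an embryonic stage in days after conception, with 2 libraries in each. The labels give no exact age for the adults, no sex, no driver or method for the null allele, and do not tie libraries to animals, so each p-value here reflects only how far these libraries, which may be technical repeats, differ from one another. LncSync itself was not analysed here.

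In striated muscle, tropomyosin molecules lie end to end along actin and, together with troponin, set when myosin can bind. Tropomodulins cap the pointed end of the thin filament and hold its length, whereas leiomodins, which are related in sequence, start new filaments and let pointed ends grow. Tpm1 is the main tropomyosin of the mouse heart, Tpm2 is used mostly by skeletal and smooth muscle, and Tpm3 and Tpm4 also make short forms for the cytoskeleton of most cells. Tmod1 is the capping protein of heart and skeletal muscle, Tmod2 is mostly neuronal, Tmod3 is made in many tissues, and Lmod2 and Lmod3 belong to heart and skeletal muscle.

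The totals lay between 16495084 and 20395600 counts per library. Levels are given as CPM, the counts scaled to a common library total, after TMM scaling, on which 3 counts correspond to 0.103 to 0.207 CPM. All 8 of the cardiomyocyte markers checked were detected in every group, and their summed level was 51931.9 and 73419.9 CPM in KO adults, 75039.4 and 75149.7 CPM in WT adults, 28526.2 and 11020.3 CPM in KO e13.5 libraries, and 24719.7 and 16056.6 CPM in WT e13.5 libraries. Markers of other cells were present as well. The 8 erythroid markers summed to at most 179.6 CPM in adults, against 19503.4 to 154035 CPM at e13.5. The 8 fibroblast markers separated the e13.5 libraries, with 417.6 CPM in KO replicate 1, 3646.4 CPM in KO replicate 2, 886.1 CPM in WT replicate 1 and 3699.4 CPM in WT replicate 2. In these bulk libraries fewer cells of a type and less RNA per cell cannot be told apart.

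Tpm3 and Tpm3-rs7 have to be read together. Tpm3 (ENSMUSG00000027940) spans chr3:90072649-90100902 on the plus strand of GRCm38. Tpm3-rs7 (ENSMUSG00000058126) is a single-exon copy at chr14:113314608-113316754, also on the plus strand, that GENCODE vM21 annotates as protein-coding. Its transcript of 2147 bases aligned with the Tpm3-201 transcript of 2230 bases over 2103 base pairs with 14 mismatches (99.3% identity), and the longest run without a mismatch was 624 bases. Over the 744 coding bases there were 3 mismatches, and 246 of 248 residues of the translated products were the same, with 0 internal stop codons. All 3 coding mismatches fall within 120 bases of a coding exon, which begin at coding position 8. They are shown because they are the only coding letters that separate Tpm3-201 from the copy. Other Tpm3 transcripts hold coding exons that the copy lacks. Tpm3-205, with 852 coding bases, had no BLAST alignment with the copy at 95% identity or more. Even so, 33.2% of its stretches of 50 bases occurred letter for letter in the copy. The 120 bases of Tpm3-201 and of the copy are printed on the plus strand of GRCm38 from the GENCODE vM21 transcripts. The first are from chr3:90079739-90079858 and the second from chr14:113314683-113314802, with the mismatched bases in capitals.
Tpm3: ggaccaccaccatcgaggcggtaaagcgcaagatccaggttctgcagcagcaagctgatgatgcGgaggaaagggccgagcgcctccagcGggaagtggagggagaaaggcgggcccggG
Tpm3-rs7: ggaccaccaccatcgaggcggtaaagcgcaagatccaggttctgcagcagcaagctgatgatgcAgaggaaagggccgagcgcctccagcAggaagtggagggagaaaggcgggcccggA

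A large share of reads from the copy would therefore also match Tpm3. Of all stretches of 50 bases in Tpm3-rs7, 69.4% occurred letter for letter in a Tpm3 transcript, as did 49.8% of stretches of 100 bases and 33.8% of stretches of 150 bases. The read length is not given in the sources used here. RSEM, named in the submitters' processing notes, divides reads that match several transcripts by estimated proportions, so the single rows of Tpm3 and Tpm3-rs7 are estimates, while their sum does not depend on that division. No other annotated gene was near-identical to either of them over at least 50% of a transcript at 95% identity.

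Tpm3-rs7 was high in KO and at or near 0 in WT at both ages. It had 40.9 and 20.1 CPM in KO adults, against 0 CPM in both WT adults. At e13.5 it had 344.8 and 267.7 CPM in KO libraries, against 1.15 and 1.07 CPM in WT libraries, which stood for 25 and 31 counts. KO and WT libraries did not overlap at either age. At e13.5 the log2 fold change of KO over WT was 8.10 ± 0.64 (SE, n = 2 libraries each; edgeR adjusted p = 0.00376). In adults Tpm3-rs7 was at least 323-fold higher in KO, taking 3 counts over both WT adults as the floor (edgeR adjusted p = 0.00461). That adult call was lost without WT adult replicate 1 (adjusted p = 0.0526) and in a fit of the 4 adult libraries alone (adjusted p = 0.0612). The average over both ages also passed (adjusted p = 0.000213), but its size is not given, since it rests on the zeros of the WT adults.

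Tpm3 itself, which encodes the tropomyosin of slow skeletal fibres and several cytoskeletal forms, had lower values in KO. It stood at 33.1 and 16.8 CPM in KO adults, against 61.0 and 46.7 CPM in WT adults. At e13.5 the values were 129.4 and 107.4 CPM in KO, against 347.7 and 294.6 CPM in WT. KO libraries lay below WT libraries at both ages with no overlap. The log2 fold change of KO over WT was -1.44 ± 0.46 at e13.5 (unadjusted p = 0.0107), -1.11 ± 0.46 in adults (unadjusted p = 0.036) and -1.27 ± 0.32 averaged over both ages (unadjusted p = 0.00289). None of these passed after adjustment over all genes, where edgeR gave adjusted p = 1 at each age and 0.577 for the average.

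The sum of Tpm3 and Tpm3-rs7 differed between genotypes by less than its error. It was 74.1 and 37.0 CPM in KO adults, against 61.0 and 46.7 CPM in WT adults, and the KO values lay on either side of the WT values. At e13.5 it was 474.2 and 375.1 CPM in KO, against 348.8 and 295.7 CPM in WT, with both KO libraries above both WT libraries. The log2 fold change of KO over WT was 0.04 ± 0.46 in adults (95% interval -0.99 to 1.08) and 0.40 ± 0.46 at e13.5 (95% interval -0.63 to 1.43), both with adjusted p = 1. Those intervals still allow a sum about 2-fold higher or lower in adult KO libraries.

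**Figure D1:**
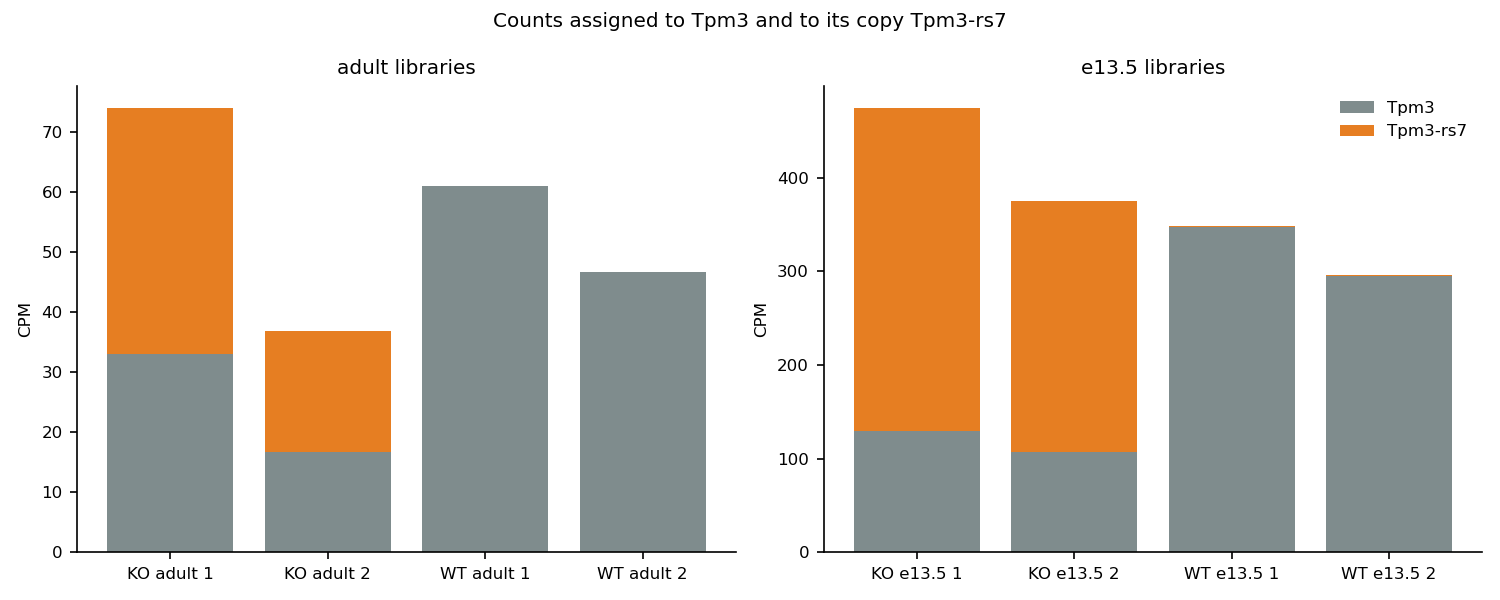
Stacked bars of the level of Tpm3 and Tpm3-rs7 in CPM in each of the 8 libraries, whose full height is the sum, with a separate axis for each age. Tpm3-rs7 reaches 344.8 CPM in KO and at most 1.15 CPM in WT, while the sums are 474.2 and 375.1 CPM in KO and 348.8 and 295.7 CPM in WT at e13.5.

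The share of the copy in that sum was high in KO alone, and within KO it differed by age. Tpm3-rs7 held 55.2% of the summed counts in KO adult replicate 1 (95% exact Clopper-Pearson interval 52.3 to 58.2%) and 54.5% in replicate 2 (50.2 to 58.7%). It held 72.7% (71.7 to 73.7%) and 71.4% (70.4 to 72.3%) in the KO e13.5 libraries. The intervals of the KO libraries did not overlap between the ages, and within an age they did. In WT adults the copy had 0 of 1048 and 0 of 678 counts, which allows a share of up to 0.286% and 0.442% by a limit of 3 counts (0.351% and 0.543% as the upper Clopper-Pearson bounds), and in WT e13.5 libraries it held 0.330% (0.214 to 0.487%) and 0.361% (0.245 to 0.512%). These intervals and limits cover counting error alone, since the reads carry no molecular identifiers, and the counts themselves rest on the division of shared reads.

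Among the other 8 members no change with genotype passed the test. At e13.5, 1 of the 10 members rose in KO and 0 fell, where 0.0602% of all genes tested rose and 0.012% fell (0.0722% together). In adults 1 of 10 rose and 0 fell, against 0.0421% of all genes rising and 0.00602% falling (0.0481% together). Averaged over both ages it was again 1 of 10 higher and 0 lower, against 0.0782% higher and 0.0421% lower among all genes (0.12% together). Tpm3-rs7 was the member called each time. The median log2 fold change of the 10 members was 0.12 at e13.5 and -0.10 in adults, beside -0.07 and 0.01 over all genes tested. At e13.5 the KO libraries lay wholly above the WT libraries for 3 members and wholly below for 2, against 6.77% above and 8.65% below among all genes (15.4% together). In adults they lay above for 1 member and below for 3, against 27.9% of all genes in either direction and 14.5% below.

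Tpm4, a cytoskeletal tropomyosin, was among those that did not overlap at e13.5, with 440.7 and 383.8 CPM in KO, against 358.8 and 328.8 CPM in WT, a log2 fold change of 0.26 ± 0.44 (adjusted p = 1). Lmod2 was the lowest of the other members by fold at e13.5, with 28.7 and 63.0 CPM in KO, against 68.3 and 63.6 CPM in WT (-0.52 ± 0.52, 95% interval -1.68 to 0.64). Lmod3 was the lowest in adults, with 77.7 and 93.5 CPM in KO, against 107.5 and 118.5 CPM in WT (-0.40 ± 0.57, 95% interval -1.68 to 0.88). Tpm1, the main cardiac form, differed by 0.07 ± 0.60 in adults and -0.09 ± 0.60 at e13.5, with overlapping libraries at both ages. Its 95% interval in adults ran from -1.27 to 1.42, so a change of about 2-fold would not have been detectable here. The remaining members stood at -0.07 for Tpm2, 0.03 for Tmod1, 0.49 for Tmod2, 0.29 for Tmod3 and 0.21 for Lmod3 at e13.5, each with adjusted p = 1. Tmod2 was the third member whose KO libraries lay wholly above WT there, with 5.88 and 6.77 CPM in KO, against 3.92 and 5.06 CPM in WT. In adults the values were -0.02 for Tpm2, 0.24 for Tpm4, -0.15 for Tmod1, -0.29 for Tmod2, -0.04 for Tmod3 and -0.20 for Lmod2, again with adjusted p = 1. Averaged over both ages they ran from -0.36 for Lmod2 through -0.10 for Lmod3, -0.06 for Tmod1, -0.05 for Tpm2, -0.01 for Tpm1, 0.10 for Tmod2 and 0.12 for Tmod3 to 0.25 for Tpm4. Signs this close to 0 changed for several of these members when 1 library was left out or the scaling changed.

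**Figure D2:**
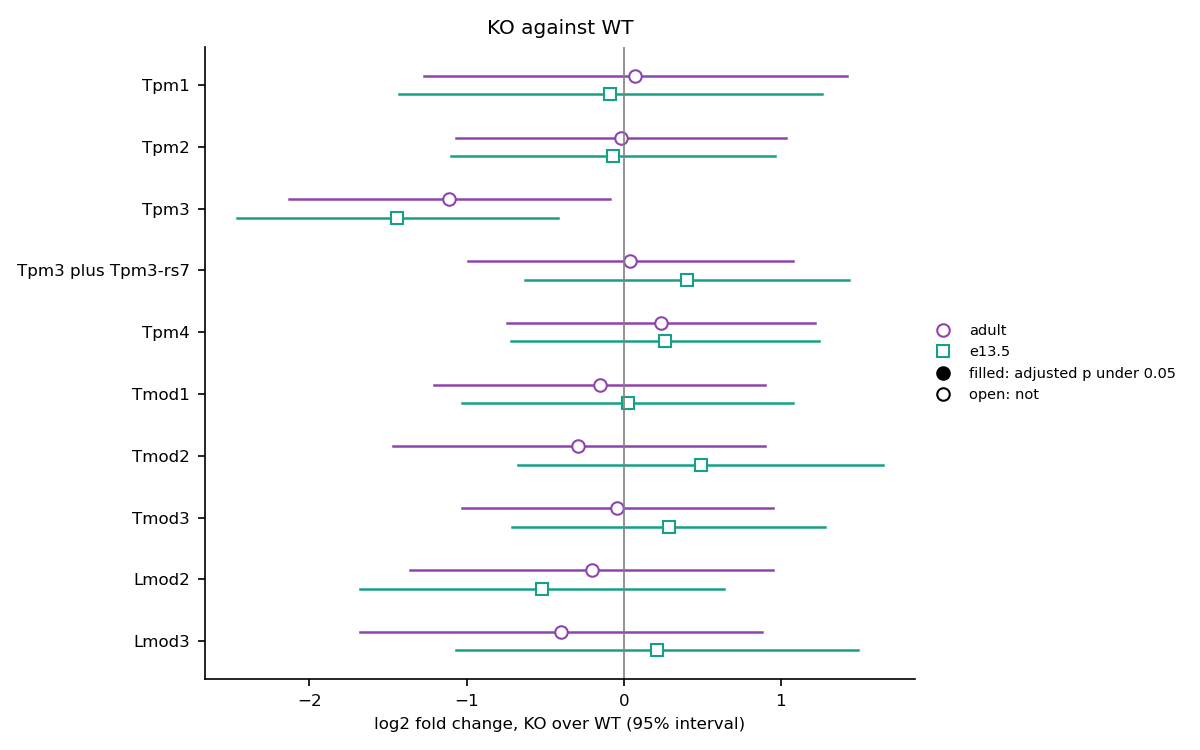
Log2 fold change of KO over WT for the members other than Tpm3-rs7 and for the sum of Tpm3 and Tpm3-rs7, in adults and at e13.5, with lines for the 95% interval and filled symbols for an adjusted p under 0.05. The intervals of Tpm3 are the only ones that lie wholly below 0, and that of the sum includes 0 at both ages.

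More members were called for age than for genotype. In KO, 1 of 10 members rose in adults and 4 fell, where 20.5% of all genes rose and 20.9% fell (41.4% together). In WT, 2 of 10 rose and 4 fell, where 17.8% of all genes rose and 21.1% fell (38.9% together). In total 5 members were called in KO and 6 in WT. Falling members were a larger share of the 10 than falling genes were of all genes, and rising members were a smaller share in KO. Whether so few members differ from all genes in this was not tested. Tpm3 and Tpm3-rs7, whose rows divide shared reads, are counted singly among the falling members in both genotypes. In KO the adult libraries lay wholly above the e13.5 libraries for 3 members and wholly below for 5, against 34.8% above and 37.9% below among all genes (72.7% together). In WT they lay above for 3 and below for 4, against 34% and 41.8% of all genes (75.9% together). The median log2 fold change of the members was -0.70 in KO and -0.15 in WT, beside -0.15 and -0.26 over all genes. Tropomyosins other than Tpm1 fell in adults, Lmod2 rose in both genotypes, Lmod3 rose in WT, and tropomodulins were not called in either direction.

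**Figure D3:**
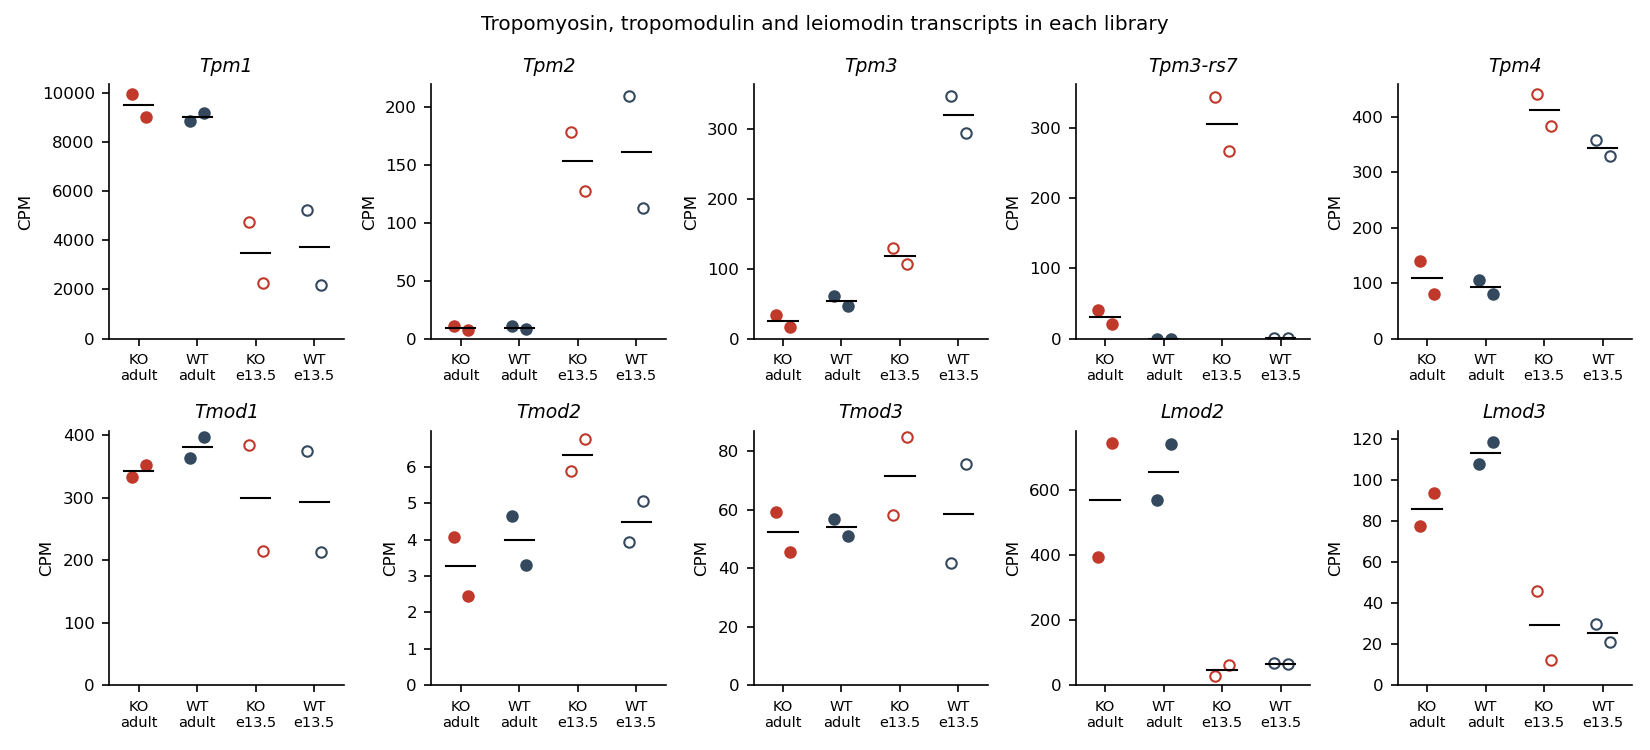
Level of each member in CPM on linear axes that start at 0 and differ between panels, with points for libraries (red KO, dark blue WT, filled adult, open e13.5) and lines for group means. Tpm2, Tpm3 and Tpm4 are lower and Lmod2 is higher in adults than at e13.5 in both genotypes.

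Tpm2, the beta tropomyosin of skeletal and smooth muscle, fell most among the members whose groups were all above 0. It had 11 and 7.69 CPM in KO adults, against 178.5 and 127.4 CPM at e13.5 in KO, and 10.9 and 7.99 CPM in WT adults, against 209.2 and 112.7 CPM at e13.5 in WT. Every adult library lay below every e13.5 library. The log2 fold change of adult over e13.5 was -4.03 ± 0.52 in KO (edgeR adjusted p = 0.000531) and -4.09 ± 0.52 in WT (adjusted p = 0.00055), which is 16.4-fold and 17.0-fold lower.

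Tpm4 fell in both genotypes as well. Its level was 140.3 and 79.5 CPM in KO adults, against 440.7 and 383.8 CPM in KO at e13.5, and 105.7 and 80.6 CPM in WT adults, against 358.8 and 328.8 CPM in WT at e13.5. No adult library reached an e13.5 library. The log2 fold change was -1.91 ± 0.45 in KO (adjusted p = 0.009) and -1.88 ± 0.45 in WT (adjusted p = 0.0102). The KO call was lost without KO adult replicate 2 (adjusted p = 0.0873), and the WT call without WT adult replicate 1 (0.0776) or replicate 2 (0.139).

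For Tpm3 the fall with age held for the gene, for its copy and for their sum. In KO the log2 fold change of adult over e13.5 was -2.24 ± 0.47 for Tpm3 (adjusted p = 0.00513), -3.33 ± 0.51 for Tpm3-rs7 (adjusted p = 0.00154) and -2.93 ± 0.50 for the sum (adjusted p = 0.00179). In WT it was -2.58 ± 0.48 for Tpm3 (adjusted p = 0.00298) and -2.58 ± 0.49 for the sum (adjusted p = 0.00337). Tpm3-rs7 was at least 11.7-fold lower in WT adults than in WT at e13.5 (adjusted p = 0.00183), taking 3 counts over both adults as the floor. The Tpm3 call was lost in KO without KO adult replicate 2 (adjusted p = 0.0548) and in WT without WT adult replicate 2 (0.0559), and the call of the sum in WT was lost without that last library (0.06).

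Tpm1 had higher values in adults, without passing the test. It stood at 9954.4 and 9035 CPM in KO adults, against 4732.2 and 2260 CPM in KO at e13.5, and at 8854.2 and 9179.6 CPM in WT adults, against 5233.5 and 2187.3 CPM in WT at e13.5. All adult libraries were above all e13.5 libraries, and the e13.5 libraries of each genotype differed from each other by over 2-fold. The log2 fold change was 1.44 ± 0.61 in KO (adjusted p = 0.0839) and 1.28 ± 0.61 in WT (adjusted p = 0.122). Without KO e13.5 replicate 1 the KO value was 2.09, with adjusted p = 0.0412.

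Lmod2, the cardiac leiomodin, was the member that rose in both genotypes. It had 393 and 744.4 CPM in KO adults, against 28.7 and 63.0 CPM in KO at e13.5. WT adults had 568.5 and 738.8 CPM, against 68.3 and 63.6 CPM in WT at e13.5. The adult libraries lay above all e13.5 libraries. The rise was 12.4-fold in KO (log2 3.63 ± 0.57, adjusted p = 0.00131) and 9.91-fold in WT (log2 3.31 ± 0.56, adjusted p = 0.00207), and both calls held in every alternative run and without each library in turn.

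Lmod3, a leiomodin studied mainly in skeletal muscle, rose in WT, with 107.5 and 118.5 CPM in WT adults, against 29.6 and 20.8 CPM in WT at e13.5 (log2 2.16 ± 0.59, adjusted p = 0.0183). In KO it had 77.7 and 93.5 CPM in adults, against 46.0 and 12.3 CPM at e13.5 (1.56 ± 0.58, adjusted p = 0.0562). Neither pair of groups overlapped, and the test of the difference between the genotypes gave no call. The WT call was lost without WT adult replicate 1 (adjusted p = 0.067), WT adult replicate 2 (0.0802) or WT e13.5 replicate 2 (0.0585). The KO value passed without KO e13.5 replicate 1, at 2.81 (0.00653), and without WT e13.5 replicate 2, at 1.51 (0.0499).

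The 3 tropomodulins did not pass the test in either genotype. Tmod1 had 333.4 and 352.4 CPM in KO adults, against 384.1 and 215 CPM in KO at e13.5, and 363.7 and 397.9 CPM in WT adults, against 375.4 and 212.8 CPM in WT at e13.5, so the ages overlapped. Its log2 fold change was 0.20 ± 0.47 in KO and 0.37 ± 0.47 in WT (adjusted p = 0.756 and 0.554), and the KO value was -0.01 under upper quartile scaling. Tmod3, the widely made form, ranged from 45.5 to 59.4 CPM in adults and from 41.6 to 84.8 CPM at e13.5, with log2 fold changes of -0.45 in KO and -0.12 in WT. Tmod2, the neuronal form, was the lowest of the 3 tropomodulins, at 2.45 to 4.66 CPM in adults and 3.92 to 6.77 CPM at e13.5, and its 2 KO adults lay below its 2 KO e13.5 libraries (-0.95 ± 0.53, adjusted p = 0.168).

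**Figure D4:**
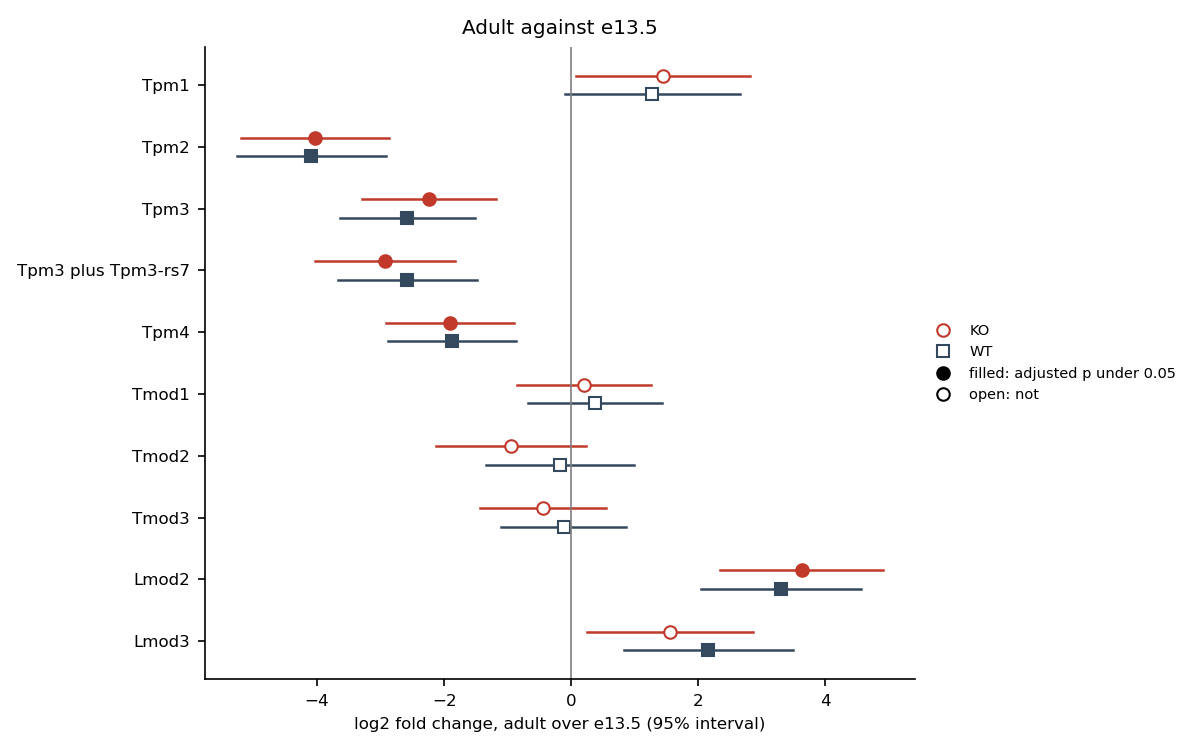
Log2 fold change of adult over e13.5 for the members other than Tpm3-rs7 and for the sum of Tpm3 and Tpm3-rs7, in KO and in WT, with lines for the 95% interval and filled symbols for an adjusted p under 0.05. Tpm2 is at -4.03 and -4.09, Lmod2 at 3.63 and 3.31, and the intervals of KO and WT overlap for every gene drawn.

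The difference of the age effect between KO and WT was tested as an interaction. None of the 10 members passed, and 0% of all genes did by edgeR, although DESeq2 called 7 genes of the whole table and 0 members. At an unadjusted threshold of 0.05 there was 1 member, Tpm3-rs7. Its interaction was 4.10 ± 1.52 on the log2 scale (edgeR adjusted p = 1) and rests on WT adults with 0 counts. For the sum of Tpm3 and Tpm3-rs7 the interaction was -0.35 ± 0.65. The other members ran from -0.78 ± 0.74 for Tmod2 and -0.61 ± 0.81 for Lmod3 to 0.33 ± 0.64 for Tpm3, with -0.33 for Tmod3, -0.18 for Tmod1, -0.02 for Tpm4, 0.05 for Tpm2, 0.16 for Tpm1 and 0.32 for Lmod2 between them.

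To set members beside each other, counts were divided by the length of the union of annotated exons and scaled to a common total (TPM). On this scale Tpm1 made up 95.4 ± 1.51% of the tropomyosin level in KO adults and 96.2 ± 0.786% in WT adults, against 55.7 ± 9.23% in KO at e13.5 and 66.1 ± 10.4% in WT at e13.5 (SD, n = 2). Tpm4 was next, with 3.21 ± 1.0% in KO adults and 2.93 ± 0.606% in WT adults, against 20.8 ± 5.32% in KO and 20.4 ± 7.90% in WT at e13.5. The order was Tpm1, Tpm4, the sum of Tpm3 and Tpm3-rs7, then Tpm2 in every group. Neighbours did not overlap, except Tpm4 and the Tpm3 sum in KO at e13.5, and the Tpm3 sum and Tpm2 in WT at e13.5. Neither the Tpm3 sum nor the shares, which contain it, are compared between genotypes on this scale, because the union length of Tpm3 is far longer than that of its copy. By the longest transcript of each gene, Tpm1 held 71.1 ± 7.63% in KO and 75.5 ± 8.41% in WT at e13.5.

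**Figure D5:**
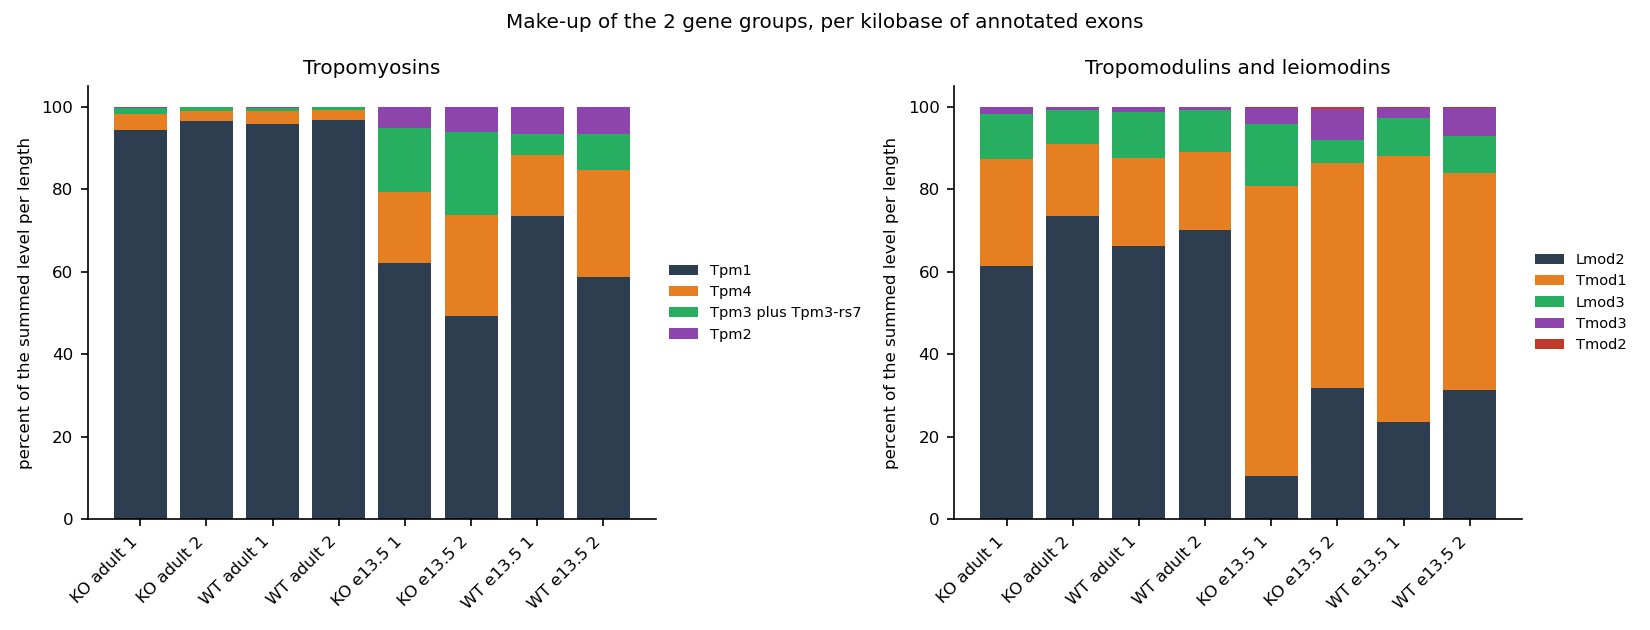
Make-up of the tropomyosin level per length, and of the tropomodulin and leiomodin level per length, in percent for each of the 8 libraries. Tpm1 holds more than 94% in every adult library, and Lmod2 takes the place of Tmod1 as the highest of the second family in adults.

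Among tropomodulins and leiomodins the leading gene differed with age. In adults the TPM order was Lmod2, Tmod1, Lmod3, Tmod3, Tmod2 in both genotypes, with no overlap between neighbours. At e13.5 it was Tmod1, Lmod2, Lmod3, Tmod3, Tmod2, where in KO Lmod2 overlapped Lmod3 and Lmod3 overlapped Tmod3. Lmod2 encodes a filament-lengthening protein and Tmod1 a capping protein, and only their RNA was measured here. The ratio of Lmod2 to Tmod1 RNA per length was 2.35 and 4.22 in KO adults and 3.12 and 3.71 in WT adults. At e13.5 it was 0.149 and 0.585 in KO and 0.363 and 0.597 in WT. Every adult ratio lay above 1 and every e13.5 ratio below 1. With the length of the longest transcript the ratios were 1.88 to 3.38 in adults and 0.119 to 0.478 at e13.5, and Tmod3 ranked above Lmod3 at e13.5.

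Most members differed between the 2 e13.5 libraries in the same direction in KO and in WT. Tpm1, Tpm2, Tpm3, Tpm3-rs7, Tpm4, Tmod1 and, most in KO, Lmod3 were higher in replicate 1 than in replicate 2 in both genotypes. Tmod3 and Tmod2 were lower in replicate 1 in both. Lmod2 was the exception, with 28.7 CPM in replicate 1 and 63.0 CPM in replicate 2 in KO, against 68.3 and 63.6 CPM in WT. By sum, replicate 1 also held more of the cardiomyocyte markers, but single markers were divided: 5 of 8 were higher in replicate 1 in KO and 4 of 8 in WT, led by Actc1 and Tnnt2, while Ryr2, Ttn and Nkx2-5 were lower in replicate 1 in both genotypes. Of the 8 fibroblast markers, 8 were lower in replicate 1 in KO and 6 in WT. All 8 erythroid markers were higher in replicate 1 in both genotypes. Their sums in replicates 1 and 2 were 154035 and 22186 CPM in KO, and 42163.5 and 19503.4 CPM in WT. The part of cell make-up in these differences was not tested. The 11 smooth muscle and pericyte markers, cells that use Tpm2 and Tpm4, summed to 1170.3 and 926.2 CPM in KO adults and 958.7 and 772.4 CPM in WT adults, against 2838.4 and 1516.6 CPM in KO and 2529.9 and 1461.8 CPM in WT at e13.5, with none of them at 0 in both libraries of any group. The 10 skeletal muscle markers summed to at most 3.31 CPM in adults and to between 12 and 32.2 CPM at e13.5, and 2 or 3 of them were at 0 in each group. The lower sum of the smooth muscle list in adults came from Acta2, Cnn1, Tagln and Lmod1, which lay wholly below e13.5 in both genotypes, whereas 7 of the 11 markers in KO and 6 in WT, Myh11 and Rgs5 among them, lay wholly above. For example, Rgs5, a pericyte marker, had 494.3 and 414.8 CPM in KO adults, against 19.7 and 71 CPM in KO at e13.5. Of the skeletal muscle markers, 5 of 10 lay wholly below e13.5 in adults of each genotype. The part of these cells in the fall of Tpm2 and Tpm4 was not tested.

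Other genes of the thin filament moved in both directions with age. Of 18 genes for actin, troponin and end proteins, 17 were tested, and 3 rose and 5 fell in adults in each genotype, where 20.5% of all genes rose and 20.9% fell in KO and 17.8% rose and 21.1% fell in WT. The list had a median log2 fold change of -0.15 in KO and -0.26 in WT, the same as over all genes. Tnni1, the slow skeletal troponin I of the fetal heart, had at most 0.207 CPM in any adult library, against 3065.8 and 1183.2 CPM in KO and 2828.7 and 1366 CPM in WT at e13.5. Tnnt1, slow skeletal troponin T, was at 7.82 to 11.1 CPM in adults, against 208 to 525.3 CPM at e13.5. Tmod4, the tropomodulin of skeletal muscle, rose to 11.6 and 10.3 CPM in KO adults, against 0.375 and 0.396 CPM in KO at e13.5, and to 16.8 and 17.8 CPM in WT adults, against 0.645 and 0.482 CPM in WT at e13.5. Nrap, which takes part in myofibril assembly, was at 636 to 1000.8 CPM in adults, against 27.3 to 60.2 CPM at e13.5.

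Of the 11 thick filament and titin genes, 5 rose and 4 fell in KO adults, and 4 rose and 3 fell in WT adults, with medians of 1.18 and 1.05, to be read beside the same shares of all genes. Myh6, the alpha myosin heavy chain of the adult mouse heart, and Myom2, an M-band protein, rose, whereas the atrial light chains Myl4 and Myl7 fell. Of the 16 cytoplasmic and smooth muscle actin partners, 1 rose and 12 fell in KO adults, and 0 rose and 13 fell in WT adults, with medians of -2.53 and -2.86 beside -0.15 and -0.26 over all genes, of which 20.9% fell in KO and 21.1% in WT. Cnn1 and Cnn2 (calponins), Tagln (transgelin) and Actg2 (smooth muscle gamma actin) were among those that fell in both genotypes. No gene of the 3 lists changed between KO and WT, at either age, averaged over both ages or in the interaction.

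Across the 8 libraries, the genes whose levels most resembled that of Tpm3-rs7 were Rpl3-ps1 (Pearson r = 0.99 of log2 CPM), Rps3a2 (0.952), Gm17383 (0.951) and Rpl15-ps2 (0.943). Rpl3-ps1, a pseudogene of a ribosomal protein gene, had 153.3 and 67.1 CPM in KO adults and 692 and 652.3 CPM in KO at e13.5, against 0 CPM in both WT adults and 0.783 and 0.448 CPM in WT at e13.5. Rps3a2 had 45.4 and 25.4 CPM in KO adults and 109.1 and 132.8 CPM in KO at e13.5, against at most 0.0461 CPM in any WT library. Tpm2 was most like Hist1h2ae (0.999), H2afy2 (0.999), Cks2 (0.998) and Cks1b (0.998), which are histone and cell cycle genes. For Lmod2 the nearest were Ak3 (0.996), Ogn (0.996), Svip (0.995) and Zfp970 (0.994). These correlations are over 8 libraries that fall into groups by age or genotype, and 10748 genes were searched, so they describe the shape of the levels only.

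The remaining members lie at these places on GRCm38. Tpm1 is at chr9:67022590-67049406 on the minus strand, Tpm2 at chr4:43514711-43523765 on the minus strand, and Tpm4 at chr8:72134975-72153142 on the plus strand. Tmod1 is at chr4:46038935-46116032 on the plus strand, and Tmod2 (chr9:75565621-75611325) and Tmod3 (chr9:75497707-75559657) are neighbours on the minus strand of chromosome 9. Lmod2 is at chr6:24597762-24605414 on the plus strand and Lmod3 at chr6:97238534-97252759 on the minus strand. Near-identical sequence in other annotated genes was found for Tmod1 (35 genes), Tmod2 (17), Tmod3 (2) and Tpm4 (1), and the highest count of any such gene listed in a library was 24. A match had to cover at least 50% of the other transcript, not of the member, so these need not be copies of the whole member. Most of those for Tmod1 and all of those for Tmod2 were annotated as microRNA genes, and those for Tmod2 spanned at most 91 bases. For Tpm1, Tpm2, Lmod2 and Lmod3 none was found. Counts are per gene, so the muscle and cytoskeletal transcripts that Tpm1, Tpm2, Tpm3 and Tpm4 each make are not separated in any value given here.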

How the data were processed

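The table deposited by the authors holds estimated counts (expected counts) per gene, made with RSEM on mm10 per the submitters' processing notes. Its values are whole numbers with differing totals and were used as counts not scaled between libraries, although the table's own name mentions normalised input. For the annotation, the aligner and the RSEM version the sources used here give no name or number. Per the labels' protocols, 200 ng of total RNA per library was amplified with Smart-seq2. Symbols and positions came from GENCODE vM21 (51633 of 51826 identifiers matched).

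Counts were filtered with filterByExpr, scaled by TMM and fitted with edgeR 4.0.16 (R 4.3.3, limma 3.58.1) by quasi-likelihood, with 4 group means over all 8 libraries and no replicate term (4 residual and 5.74 prior degrees of freedom). Tests were two-sided, with Benjamini-Hochberg adjustment over all 16623 genes and a threshold of 0.05. The sum of Tpm3 and Tpm3-rs7 was fitted in place of its parts. Copies were searched with BLAST 2.17.0, alignments made with Biopython 1.88 (Python 3.11.15) and plots with matplotlib 3.10.9.

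All 10 members are named in every comparison. Of 3 lists of other muscle and actin genes, up to 4 changed genes of smallest p in WT adults against WT e13.5 are named, and for Tpm3-rs7, Tpm2 and Lmod2 the 4 genes of at least 5 CPM with the highest Pearson correlation of log2 CPM (prior count 2). Members and lists were chosen with earlier results of these data known. Alternatives were other scalings and filters, robust fitting, DESeq2 1.42.0, only the 4 libraries compared, a replicate block, transcript length and each library left out. Columns not used numbered 0. Of the steps, the edgeR fit alone was tested on simulated counts, for KO against WT at e13.5 only.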

Additional observations from a re-analysis of the deposited data

How the results depend on the processing

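Of 685 single values of members under the alternatives, 645 kept their direction and their side of the threshold, 23 changed sign, 10 lost and 7 gained a call. Median-of-ratios scaling and DESeq2 shifted genes by a median of 0.14 at e13.5 (KO over WT), and Tpm1 and Tpm2 were then 0.05 each; upper quartile scaling shifted them by -0.20 for adult over e13.5 in KO, where Tmod1 was -0.01. The count of members changed between KO and WT adults was 0 with only the 4 libraries compared. Leaving out 1 library gave 0 to 1 there (0 without WT adult replicate 1), 3 to 7 for age in KO (3 without KO adult replicate 2) and 3 to 6 for age in WT (3 without WT adult replicate 2). A group left with 1 library is assumed to vary like the others. Over these omissions the sum of Tpm3 and Tpm3-rs7 ran from -0.54 to 0.46 (KO over WT, adults), -0.07 to 0.43 (averaged), -2.78 to -2.32 (age in WT) and -0.94 to 0.06 (interaction). Uncalled members that changed sign at e13.5 were Tpm1 (-0.73 to 0.84), Tpm2 (-0.42 to 0.59), Tmod1 (-0.46 to 0.65) and Lmod3 (-1.04 to 0.88). In adults they were Tpm2 (-0.30 to 0.23), Tpm4 (-0.23 to 0.59), Tmod2 (-0.70 to 0.03), Tmod3 (-0.25 to 0.14) and Lmod2 (-0.73 to 0.19). With age they were Tmod1 in KO (-0.17 to 0.69) and, in WT, Tmod2 (-0.44 to 0.08) and Tmod3 (-0.35 to 0.40). The cause was not tested. By longest transcript, Tpm1 made up 97.6% of tropomyosin in KO adults, 97.8% in WT adults, 71.1% in KO e13.5 libraries and 75.5% in WT e13.5 libraries.

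Same-numbered KO and WT libraries deviated together (correlation 0.311 in adults, 0.545 at e13.5), but the labels do not say that a number marks a shared litter or day. With the replicate number as a block, 7 members changed with age in each genotype: Tpm1 passed in KO (1.54, adjusted p = 0.0325) and WT (1.41, 0.0462), Lmod3 in KO (1.72, 0.028), and the sum in adults was -0.01. Without the filter on low counts Lmod3 also passed in KO (0.025). Over all genes, the count of calls ran from 5 to 87 at e13.5 and 0 to 64 in adults for KO against WT (12 and 8 as reported), 11 to 100 averaged (20), 3710 to 8081 and 2990 to 7614 for age in KO and WT (6883 and 6463) and 0 to 30 for the interaction (0). Genotype intervals of about 1 on the log2 scale limit what 2 libraries per group could show.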
